A study of Mus musculus with 6 samples.

Results

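The genes described here were grouped under the brush border of the proximal tubule, the first tubule segment of the nephron. They were chosen by name as apical scaffold, microvillus, endocytic and peptidase genes: Pdzk1, Vil1, Ezr, Lrp2, Mep1a, Mme, Anpep, Ggt1, Napsa and Keg1. Keg1, of the glycine N-acyltransferase family, is in the group but has none of these roles by name. Brush border probe sets below are those of this group. Of these 10 genes, 9 were measured, by 10 of 12422 probe sets that are not array controls. Pdzk1 had a pair of probe sets and each of the other measured genes had 1. No probe set was named for Ggt1, the enzyme that splits glutathione at the cell surface, so it is not analysed here. The 9 genes stand among 8251 genes with a probe set of a single symbol. They were picked with the mutant and wild-type values of these 6 arrays already known, so their differences between the groups are given as a description, without a test.

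The tissue was the whole metanephros, the embryonic kidney, of mouse embryos at E14.5. The mutant group was 2 pools of 8 to 10 kidneys each, from 4 to 5 embryos with the Wnt4tm1Amc allele, of a strain labelled 129. The wild-type group was 4 pools of 2 kidneys each, of a strain labelled CD-1. Matings of CD-1 mice are described for both groups. Strain label, pool size and genotype cannot be told apart, and the labels do not say which cells the allele acts in. Wnt4 is a secreted signal needed to induce the renal vesicle, the first epithelial stage of the nephron, and the study compared the groups to find genes of the renal vesicle and the structures it forms. Values are array signals on a linear scale, and log2 differences are mutant minus wild type on log2(signal + 16), a scale that shrinks the differences of dim genes.

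The brush border is a dense carpet of microvilli on the side of the tubule cell that faces the filtered fluid. A core of actin bundled by villin holds up each microvillus, ezrin ties that core to the membrane, and scaffold proteins with PDZ domains such as PDZK1 hold transporters in place. Between the microvilli, the receptor megalin takes filtered proteins into the cell, and enzymes anchored in the membrane cut filtered peptides into pieces that can be taken up.

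The stretches of genome just before the annotated starts of 6 of these genes are shown because their base composition differed widely. They end at the base before a RefSeq transcript start on build GRCm38.p6, are written 5′ to 3′ on the gene's own strand, and run for 100 bases. Capitals mark the GC box letters GGGCGG, searched on both strands, so that CCGCCC marks the other strand.
Mep1a, chr17:43502774-43502873, minus strand: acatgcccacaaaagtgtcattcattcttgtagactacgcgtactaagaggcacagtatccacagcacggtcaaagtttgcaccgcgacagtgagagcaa
Keg1, chr19:12695690-12695789, plus strand: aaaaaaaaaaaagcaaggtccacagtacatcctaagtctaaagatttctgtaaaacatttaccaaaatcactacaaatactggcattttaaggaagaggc
Vil1, chr1:74409284-74409383, plus strand: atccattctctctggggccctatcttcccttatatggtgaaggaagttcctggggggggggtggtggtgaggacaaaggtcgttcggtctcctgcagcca
Lrp2, chr2:69586030-69586129, minus strand: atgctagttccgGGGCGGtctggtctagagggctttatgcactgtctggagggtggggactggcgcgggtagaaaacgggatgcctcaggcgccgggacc
Ezr, chr17:6782781-6782880, minus strand: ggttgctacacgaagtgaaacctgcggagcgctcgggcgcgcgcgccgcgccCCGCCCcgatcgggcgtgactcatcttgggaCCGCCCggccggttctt
Anpep, chr7:79848211-79848310, minus strand: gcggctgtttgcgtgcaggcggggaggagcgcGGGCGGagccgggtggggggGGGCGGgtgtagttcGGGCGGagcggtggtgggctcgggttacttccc

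The RefSeq windows, from 250 bases before to 50 after each start, covered 8 of the 9 measured genes with 11 windows. Keg1 and Mep1a had windows of 37.3% and 42.3% G and C with no GC box, against a median of 52.7% over all 32851 windows. Ezr and Anpep had windows of 68.0% and 72.3% G and C, with 2 and 4 GC boxes. Vil1 and Lrp2 lay between them at 61.7% and 65.0%, with 1 and 2 GC boxes. The windows of Pdzk1 had 51.0% and 50.7%, with 1 and 0 GC boxes. Those of Mme had 46.0%, 73.0% and 72.3%, with 1, 2 and 2. GC boxes were found in 8 of the 11 windows, which belong to 6 genes, and in 35.7% of all windows. A relation of base composition to the differences between the groups was not tested. The letters CAAAGTCCA, bound by the transcription factor HNF4, were found in 1 of the 11 windows and in 0.475% of all windows. The window was the first of Pdzk1 in genome order, and the letters began at base 15 of its transcript. That site, in capitals with 10 bases on each side, was on the plus strand of GRCm38.p6.
Pdzk1, chr3:96830069-96830097, plus strand: aatctttgtcCAAAGTCCAgtgagttcca
The letters GTTAAT, one arm of the site of the factor HNF1, searched on both strands, were found in 0 of the 11 windows and in 7.10% of all windows. A match is a match of letters and does not show a bound site.

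Wnt4 itself read 74.2 and 34.5 in the mutant pools, against 829, 739, 946 and 699 in wild-type replicates 1 to 4, so the targeted gene was low in both libraries labelled mutant. Median signals were 172.7 to 191.0 over the 6 arrays. Correlations of log2 signals over the tested probe sets were 0.969 between the mutant arrays, 0.939 to 0.969 among wild-type arrays and 0.918 to 0.934 between the groups. Over all 7981 tested probe sets the median log2 difference was 0.02. The kidney marker Six2, a factor of nephron progenitors, read 2643 and 2457 in the mutant and 2584 to 2925 in the wild type. Of 6 tested progenitor markers (7 listed), 2 were lower and 0 higher: Uncx read 989 and 849 in the mutant and 2140 to 2542 in the wild type, and Cited1 1079 and 1138 in the mutant and 1688 to 2320 in the wild type. The list summed to 6148 to 6323 in the mutant and 8054 to 9084 in the wild type. BioB, a bacterial transcript added before hybridization, averaged 940 ± 14.4 (SD, n = 2) on mutant arrays and 1723 ± 121 (SD, n = 4) on wild-type arrays for its middle probe set. Its part in the low signals described here was not tested.

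Markers of other cell types moved with the same contrast. Skeletal muscle markers, 8 of 8 on the array, were higher in 5 of 6 tested genes and lower in 0. They summed to 4705 to 4998 in the mutant and 976 to 1729 in the wild type. Erythroid markers, 6 of 7 on the array, were higher in 3 of 6 tested genes and lower in 0, and summed to 17545 to 19027 in the mutant and 5137 to 7670 in the wild type. The 3 were the globin genes Hbb-y, Hba-x and Hbb-bh1, and Hbb-y alone read 12187 and 13314 in the mutant. Alas2, Epor and Klf1 did not pass (limma adjusted p = 0.0643, 0.799 and 0.779). Alas2 read 500 and 479 in the mutant and 602 to 799 in the wild type. Endothelial markers, 7 of 7 on the array, were lower in 3 of 7 tested genes and higher in 0, and summed to 4289 to 4651 in the mutant and 6023 to 6169 in the wild type. The part of these cells in the results below was not tested. In whole kidneys, fewer cells of a type and less RNA per cell cannot be told apart.

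The measured genes fell into 3 sets by the size of their difference. Pdzk1, Keg1, Napsa, Mep1a, Vil1 and Lrp2, 6 genes in all, lay more than 2 log2 units lower in the mutant, as did 51 of 7981 tested probe sets (0.639%). With an offset of 64 in place of 16 this set held 4 genes, without Mep1a and Vil1. Ezr and Anpep differed by -0.72 and -0.69, and Mme, with overlapping groups, by 0.28. The median log2 difference was -2.96 over the 9 genes by their brightest probe sets. Of the 10 probe sets, 9 were lower at the threshold that called 6.11% of all tested probe sets lower, a limma adjusted p under 0.05. In 9 of 10 the highest mutant signal was under the lowest wild-type signal, which held for 18.8% of all tested probe sets. In 0 of 10 both mutant signals were above every wild-type signal, against 18.6% of all tested. These counts used the contrast that chose the genes. All 10 probe sets exceeded the 40th percentile of signals on all 4 wild-type arrays, while 6 of them did so on no mutant array, so these 6 passed the filter on low values through the wild type alone. Signals this low were not shown to be above background, since no detection calls were used, so the sizes of their differences and their percentages of the wild-type mean depend on the low end of the scale.

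**Figure D1:**
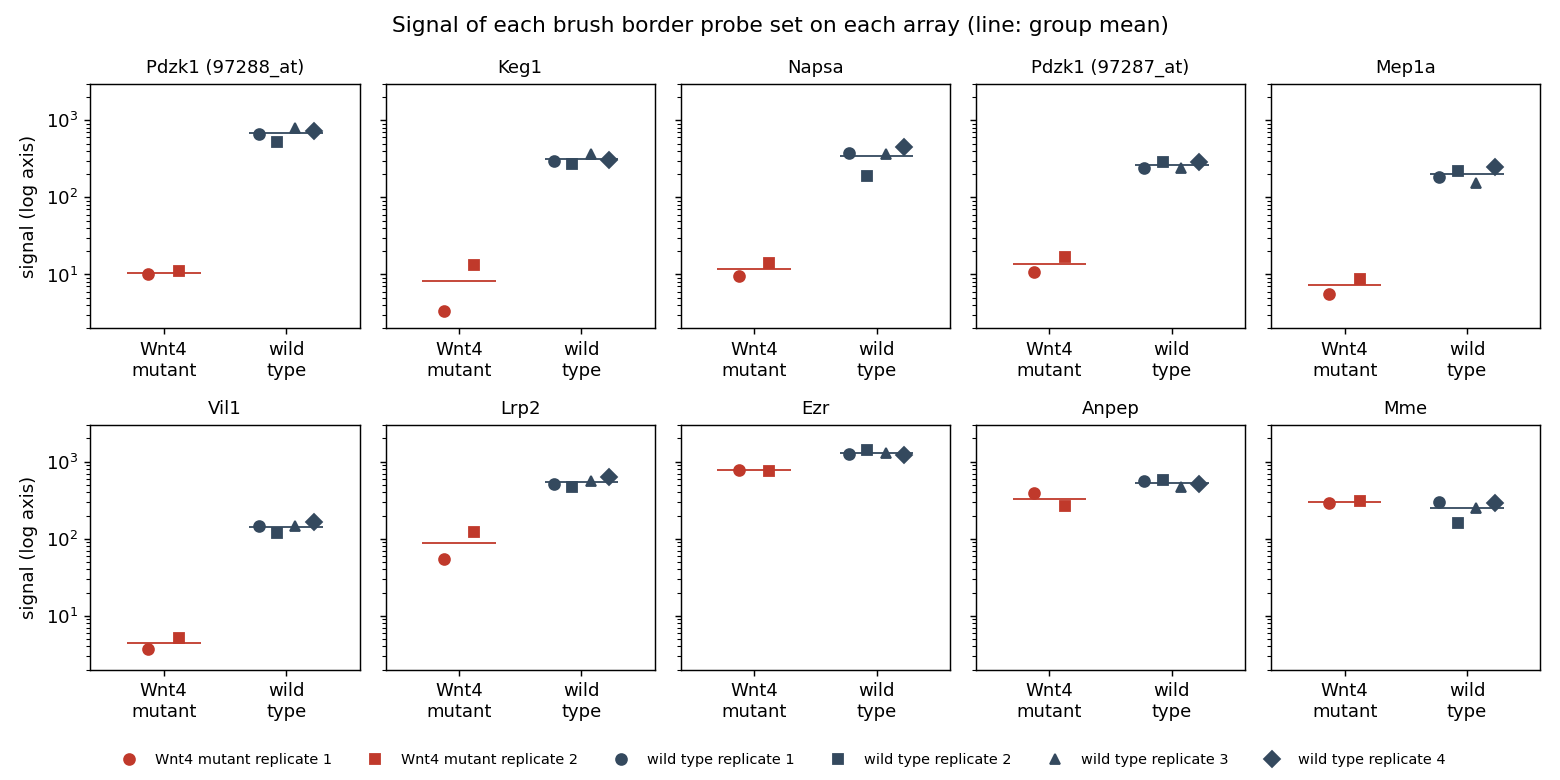
Signal (log axis) of each of the 10 probe sets on each array, with the 2 Wnt4 mutant arrays left of the 4 wild-type arrays and a line at each group mean. In 9 panels the mutant points lie below all wild-type points, from 3.35 to 16.8 in the panels of Pdzk1, Keg1, Napsa, Mep1a and Vil1, and only for Mme do the groups overlap.

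Pdzk1 encodes the PDZ scaffold that binds the tails of phosphate, anion and other transporters in the brush border. Its brighter probe set read 10.1 and 11.0 in the mutant pools, against 674.5, 518.5, 802.85 and 739.35 in wild-type replicates 1 to 4. The mutant mean was 1.55% of the wild-type mean, and the mutant values stood at percentiles 6.94 and 9.51 of their own arrays. The log2 difference was -4.70 ± 0.22 (SE) at the offset of 16, with -5.87 and -3.31 at offsets of 1 and 64. The dimmer probe set read 10.9 and 16.8 in the mutant and 238.1, 290.5, 240.0 and 284.6 in the wild type, a log2 difference of -3.23 ± 0.28 (SE). The groups were far apart at both probe sets, but the wild-type arrays did not keep the same order: replicate 2 was the lowest of the wild type at the brighter probe set and the highest at the dimmer one.

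Vil1 encodes villin, which bundles the actin core of the microvillus. It read 3.71 and 5.14 in the mutant, against 144.7, 118.7, 147.0 and 164.0 in the wild type. The mutant mean was 3.08% of the wild-type mean, and the log2 difference was -2.96 ± 0.42 (SE). Its wild-type signals stood at percentiles 42.7 to 49.0 of their arrays, and its mutant signals at 1.73 and 3.76.

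Ezr encodes ezrin, the linker between membrane and actin that many epithelia share. It read 778.5 and 766.7 in the mutant, against 1250.0, 1405.4, 1281.2 and 1208.0 in the wild type. The groups did not overlap and both were tight, at 773 ± 8.34 (SD, n = 2) in the mutant and 1286 ± 85.0 (SD, n = 4) in the wild type. The log2 difference was -0.72 ± 0.10 (SE), and 60.1% of the wild-type mean remained. Of the ureteric bud and collecting duct markers, another epithelium of this tissue, 0 of 11 tested genes were lower and 4 were higher (13 of 14 were on the array). Their summed signal was 10136 to 10335 in the mutant and 7760 to 8411 in the wild type. The 4 higher genes were Gata2, Krt7, Krt8 and Krt18. Among those that did not pass, Elf5 read 40.2 and 15.4 in the mutant and 79.0 to 141 in the wild type (-1.57, limma adjusted p = 0.0577). Gata3 and Krt19 had 0.47 and 0.56 (limma adjusted p = 0.117 and 0.108). Ret, which defines the bud tip, was dim and was not tested. It read 8.08 and 8.61 in the mutant and 30.5 to 104 in the wild type, so the groups did not overlap. The part of these cells in the Ezr signal was not tested.

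Lrp2 encodes megalin, the large endocytic receptor of the proximal tubule. It read 55.1 and 121.6 in the mutant, against 512.9, 467.2, 559.8 and 634.3 in the wild type. The mutant mean was 16.3% of the wild-type mean, and the log2 difference was -2.49 ± 0.26 (SE). Of the mutant arrays, replicate 2 alone exceeded the 40th percentile of its array. Without mutant replicate 2 the difference was -2.97 and without mutant replicate 1 it was -2.02. The groups did not overlap in any case.

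The peptidases differed from each other in the size of their difference. Mep1a, the alpha subunit of the secreted and membrane-bound metalloprotease meprin, read 5.62 and 8.81 in the mutant, against 182.3, 219.7, 155.3 and 249.6 in the wild type. Its mutant mean was 3.58% of the wild-type mean and its log2 difference was -3.21 ± 0.36 (SE). Napsa encodes napsin A, an aspartic protease of kidney and lung. It read 9.68 and 14.2 in the mutant, against 375.9, 191.1, 364.4 and 447.2 in the wild type, with a log2 difference of -3.63 ± 0.35 (SE). Even its lowest wild-type array, replicate 2, lay far above both mutant arrays.

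Anpep encodes aminopeptidase N, which trims amino acids from the ends of peptides and is also made by stromal and myeloid cells. It read 388.7 and 265.9 in the mutant, against 567.2, 569.4, 468.4 and 520.2 in the wild type. The groups did not overlap, and the log2 difference was -0.69 ± 0.17 (SE), with 61.6% of the wild-type mean left. Leaving out mutant replicate 2 gave -0.43, and leaving out mutant replicate 1 gave -0.95. The count of 9 probe sets at the threshold was 8, without Anpep, when wild-type replicate 1, wild-type replicate 2 or mutant replicate 2 was left out. The counts over all probe sets were then 320, 415 and 188, and nothing is read from these calls.

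Mme encodes neprilysin, a metallopeptidase that in the kidney is made by proximal tubule cells and podocytes. It read 293.9 and 304.1 in the mutant, against 300.6, 160.8, 252.4 and 286.6 in the wild type, so the groups overlapped. Its mean was 299 ± 7.25 (SD, n = 2) in the mutant and 250.1 ± 62.9 (SD, n = 4) in the wild type, and the log2 difference of 0.28 ± 0.25 (SE) was about as large as its error. Wild-type replicate 2 was the low array, and without it the difference was 0.09. Podocyte markers, of which 4 of 7 were on the array, were lower in 1 of 3 tested genes, with 0 higher, and summed to 874 to 1069 in the mutant and 1361 to 1862 in the wild type. The lower gene was Ptpro, with 73.0 and 12.8 in the mutant and 290 to 428 in the wild type (limma adjusted p = 0.00331). It passed the filter through the wild type alone. Wt1, the brightest, read 817 and 753 in the mutant and 852 to 1204 in the wild type (limma adjusted p = 0.0823). Synpo had -0.72 (limma adjusted p = 0.103). The podocyte marker Podxl read 28.7 and 14.9 in the mutant and 8.31 to 48.7 in the wild type and was not tested. Stromal markers, 11 of 13 on the array, were higher in 9 of 11 tested genes and lower in 0. They summed to 34587 to 36733 in the mutant and 16869 to 21711 in the wild type. Col1a1 and Pdgfrb did not pass (limma adjusted p = 0.320 and 0.0713). Pdgfrb went the other way, with 207 and 218 in the mutant and 264 to 430 in the wild type. The part of either cell type in the Mme and Anpep signals was not tested.

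Keg1 encodes a protein of the glycine N-acyltransferase family, first named for its expression in kidney. It read 3.35 and 13.3 in the mutant, against 299.4, 274.5, 369.1 and 308.1 in the wild type. The mutant mean was 2.66% of the wild-type mean, and the log2 difference was -3.78 ± 0.29 (SE). The mutant values stood at percentiles 1.41 and 11.6 of their arrays.

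How large these differences look depends on the number added before the logarithm, for those genes whose mutant signals were near the low end. With an offset of 1 the log2 difference of Pdzk1 was -5.87, that of Keg1 -5.31 and that of Vil1 -4.74. With an offset of 64 they were -3.31, -2.38 and -1.60. Ezr, bright in both groups, had -0.73 and -0.69 at the same offsets. The order within the strongly lower set therefore changed with the offset: Vil1 was lower than Lrp2 at offsets of 1 and 16, and Lrp2 (-2.02) was lower than Vil1 at 64. The gap between Lrp2 and Ezr kept its direction at all 3 offsets.

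**Figure D2:**
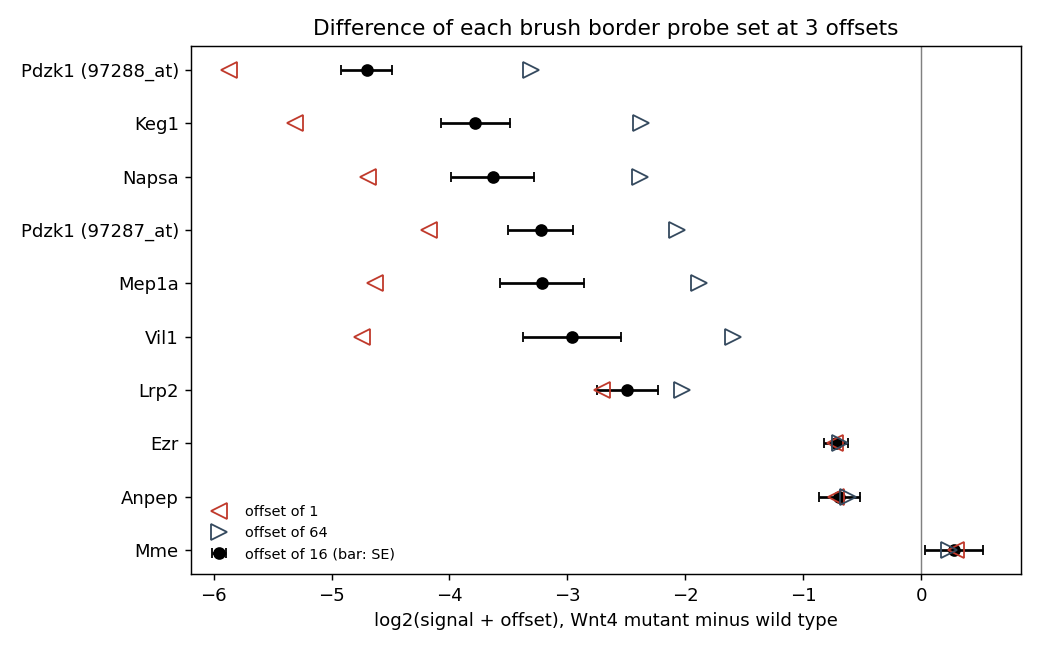
Log2 difference (mutant minus wild type) of each probe set at offsets of 1, 16 and 64, with the SE of the fit at 16. Pdzk1, Keg1, Napsa, Mep1a and Vil1 differ by more than 2 log2 units between offsets of 1 and 64, while the symbols of Ezr, Anpep and Mme nearly coincide and those of Lrp2 run from -2.71 to -2.02.

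Spread among the wild-type arrays is not itself a difference between the groups. A choice of genes by a clear difference can still favour a small spread, so the values below are a description. The coefficient of variation of the 10 probe sets over the 4 wild-type arrays had a median of 13.1%, against 13.9% for all tested probe sets and 16.4% for the 4971 with wild-type means of 100 to 800, a range that holds all of the 10 but Ezr. Ezr was the steadiest, at 6.61%, and Napsa the most variable, at 31.5%, with its highest wild-type array 2.34 times its lowest. Wild-type replicate 2 was the lowest wild-type array for 6 of the 10 probe sets, those of Keg1, Napsa, Vil1, Lrp2 and Mme and the brighter one of Pdzk1, while it was lowest for 24.7% of all tested probe sets. Wild-type replicate 4 was the highest for 4, those of Napsa, Mep1a, Vil1 and Lrp2, against 26.6% of all tested. These probe sets share the same arrays, and the excess was not tested.

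**Figure D3:**
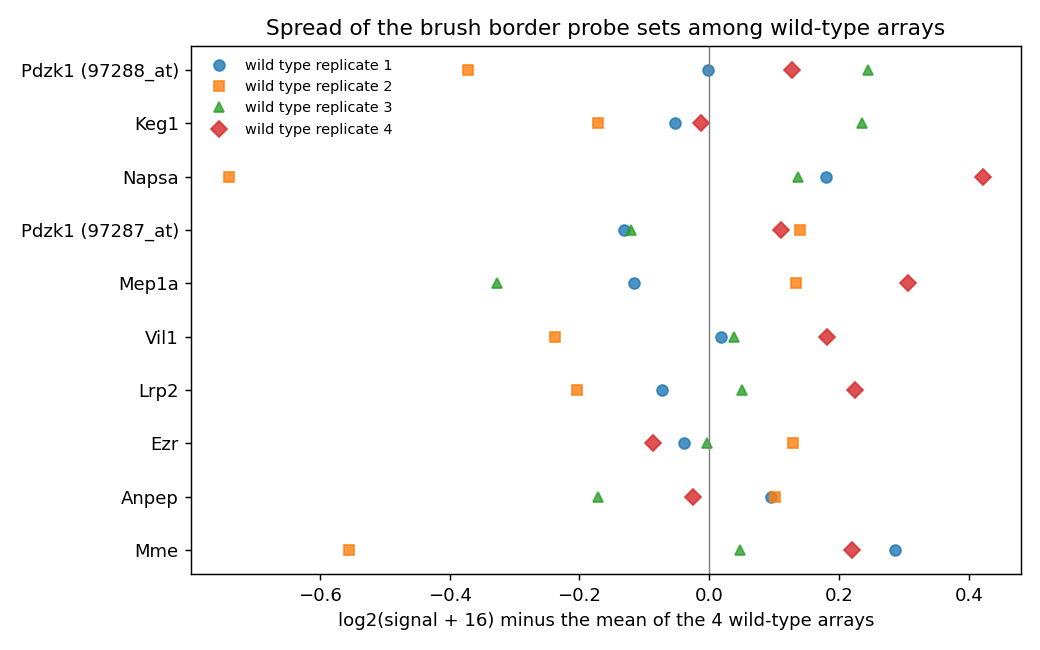
Deviation of log2(signal + 16) on each wild-type array from the mean of the 4, for each probe set. Replicate 2 lies furthest to the left for 6 probe sets, at -0.74 for Napsa and -0.55 for Mme, and to the right of the mean for the dimmer Pdzk1 probe set, Mep1a, Ezr and Anpep.

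Likeness to Pdzk1 and to Lrp2 was measured as Pearson's r of log2(signal + 16) over the 6 arrays. These share the group difference, so r is high for any gene that is clearly lower in the mutant. Among genes outside the set, Slain1 (0.998), Cyp51 (0.998), Ctse (0.997), Cyp2d26 (0.996) and Pdhb (0.995) were most like Pdzk1. Their differences varied widely in size. Ctse, a cathepsin, had a log2 difference of -2.70 and Cyp2d26, a cytochrome P450, -2.52. Pdhb, a subunit of pyruvate dehydrogenase, had -1.40, and Cyp51, an enzyme of cholesterol synthesis, -0.57. Slain1 had -0.66 and did not pass the threshold. Most like Lrp2 were the Notch ligand gene Dll1 (0.998), Fam167b (0.997), Mrps12 (0.993), the glucose-6-phosphate transporter gene Slc37a4 (0.993) and Gspt1 (0.993). Dll1 read 29.8 and 75.0 in the mutant and 585 to 757 in the wild type, so that like Lrp2 it was higher in mutant replicate 2 than in replicate 1. Within the set, r with Pdzk1 was between 0.983 (Mep1a) and 0.999 (Vil1) for Vil1, Keg1, Napsa and Mep1a, 0.973 for Lrp2, 0.965 for Ezr, 0.858 for Anpep and -0.37 for Mme.

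Other genes were listed by function, without the members, but with earlier results of these data known. The list held 95 genes of the same structures and transcription factors that may act on them, of which 57 were on the array and 44 were tested. At a limma adjusted p under 0.05, 6 of the 44 were lower and 2 were higher, which is 13.6% and 4.55%, against 6.11% and 4.65% of all tested probe sets. The first shares count genes by their brightest tested probe set and the second count probe sets, and their difference was not tested. Among the 6 lower genes, Dpp4 passed the filter on low values through the wild type alone. The median log2 difference of the 44 was -0.18, against 0.02 over all tested probe sets. Of the 44, 36 passed in neither direction, the transcription factor Hnf4a among them.

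Of the genes listed as scaffolds and their partner, 2 of 3 tested fell and 0 rose, and 1 of the 2 is a PDZ scaffold gene. Pdzk1ip1, the small membrane protein that PDZK1 binds, read 484.1 and 532.5 in the mutant, against 1261.6, 985.1, 1207.6 and 1230.4 in the wild type, and fell by 1.17 on the log2 scale (SE 0.13, limma adjusted p = 6.61e-04). Slc9a3r1, the scaffold NHERF1 that binds ezrin, read 794.7 and 682.9 in the mutant, against 1379.8, 1655.8, 1556.6 and 1509.2 in the wild type, and fell by 1.03 (SE 0.11, limma adjusted p = 6.61e-04). Their mutant means were 43.4% and 48.4% of the wild-type means, and the groups overlapped for neither gene. Slc9a3r2, the related NHERF2, had -0.56 (limma adjusted p = 0.207).

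Of the other microvillus genes, 1 of 20 tested fell, 1 rose and 18 passed in neither direction. Their median log2 difference was -0.11. The motor gene Myo6, named after its values were seen, counts among the 18 by its brightest probe set (-0.17, limma adjusted p = 0.534), but another probe set read 279.8 and 263.0 in the mutant and 420.3 to 586.2 in the wild type, with -0.89 (limma adjusted p = 0.00906), and the third had -0.36 (limma adjusted p = 0.294). Scin, the actin-severing protein scinderin from the villin family, read 112.1 and 123.3 in the mutant and 211.5 to 307.6 in the wild type, and fell by 1.01 (SE 0.21, limma adjusted p = 0.0171), a call that was lost without mutant replicate 1 (-0.95) or 2 (-1.07), without wild-type replicates 2 and 4 together (-0.86) or with a replicate block (-0.91). Svil, supervillin, another relative of villin, rose by 0.65 (SE 0.083, limma adjusted p = 0.00148), with 3906 and 4181 in the mutant and 2478 to 2710 in the wild type. Rdx, radixin, which does the same work as ezrin in other cells, read 2304 and 2368 in the mutant and 1966 to 2665 in the wild type. Flii and the actin bundler Fscn1 had 0.04 and -0.21 (limma adjusted p = 0.825 and 0.222).

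Of the other endocytic genes, 1 of 10 tested fell, 1 rose and 8 did not pass. Folr1, the folate receptor of the tubule, read 218.8 and 128.0 in the mutant, against 645.3, 482.5, 574.7 and 547.5 in the wild type, and fell by 1.65 (SE 0.21, limma adjusted p = 0.00148). Its second, dimmer probe set had -1.25 (limma adjusted p = 0.133). Lrp1, a relative of megalin made by many cells, rose by 0.48 (SE 0.11, limma adjusted p = 0.0245), and this call was lost when wild-type replicate 1 or 3 or mutant replicate 1 or 2 was left out (0.36 to 0.59), and with no variance trend (0.48) or a replicate block (0.47). Lrpap1, the chaperone of megalin, had -0.07 (limma adjusted p = 0.844) and the coat protein gene Cltc -0.16 (limma adjusted p = 0.457). Lrp6, a Wnt co-receptor, disagreed between its probe sets. The brighter had 0.09 (limma adjusted p = 0.712). The dimmer read 50.2 and 9.79 in the mutant and 229 to 385 in the wild type, with -2.88 (limma adjusted p = 0.00203). Both mutant signals of the dimmer one were under the 40th percentile of their arrays, so it passed the filter through the wild type alone. Cubn, cubilin, the partner receptor of megalin, was singled out after its values were seen: its brighter probe set read 92.0 and 68.8 in the mutant and 116.2 to 211.0 in the wild type, with -0.85 (limma adjusted p = 0.109), and its other probe set was not tested.

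Of the other enzymes, 2 of 10 tested fell, 0 rose and 8 did not pass. Dpp4, a brush border peptidase that releases dipeptides from the ends of peptides, read 35.5 and 76.3 in the mutant, against 161.0, 248.0, 257.5 and 231.7 in the wild type, and fell by 1.78 (SE 0.32, limma adjusted p = 0.00856), a call lost without mutant replicate 1 (-1.36). Both mutant signals of Dpp4 were under the 40th percentile of their arrays, so it passed the filter on low values through the wild type alone. Enpep, aminopeptidase A, read 673.0 and 728.8 in the mutant, against 1583.5, 1610.0, 1923.3 and 1849.7 in the wild type, and fell by 1.29 (SE 0.11, limma adjusted p = 2.58e-04). A dimmer Enpep probe set went the other way, with 0.61 (limma adjusted p = 0.106), and the mean of both had -0.34 and did not pass. Ctsd, a lysosomal relative of napsin, had -0.18 (limma adjusted p = 0.633), and Ece1 and Rnpep differed by -0.02 and by less than 0.001 (limma adjusted p = 0.975 and 0.999).

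Transcription factors listed as possible regulators were mostly too dim to test. Of 5 on the array, 1 was tested. Hnf4a, a factor of the proximal tubule in the mouse, read 25.3 and 30.1 in the mutant, against 241.8, 14.9, 180.7 and 229.8 in the wild type. Wild-type replicate 2 was below both mutant arrays. Among the 10 brush border probe sets this replicate was the lowest wild-type array for 6 and the highest for 3. A link between Hnf4a and these probe sets was not tested. With wild-type replicate 2 the log2 difference of Hnf4a was -1.68 ± 0.82 (SE; limma adjusted p = 0.230), and without it, at -2.41, Hnf4a passed. Hnf4g, Ppara, Cdx2 and Maf averaged 7.65, 42.2, 47.8 and 88.4 in the mutant and 18.0, 79.9, 30.8 and 46.8 in the wild type, and were not tested.

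**Figure D4:**
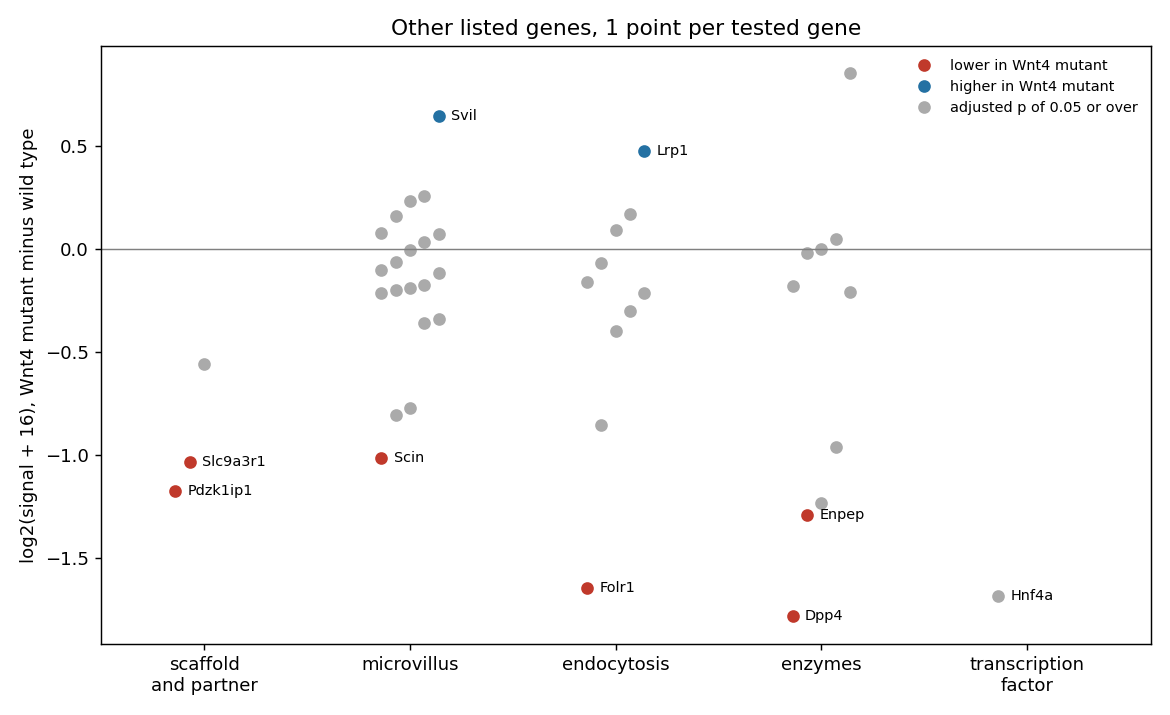
Log2 difference (mutant minus wild type) of each of the 44 tested genes listed outside the set, by its brightest tested probe set and grouped by role. The 6 lower genes (Dpp4, Folr1, Enpep, Pdzk1ip1, Slc9a3r1 and Scin) and the 2 higher ones (Svil and Lrp1) are named and coloured. The 36 grey points did not pass, and Hnf4a, which is named, is among them.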

How the data were processed

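Each of 6 Affymetrix MG_U74Av2 arrays has 1 deposited intensity per probe set, on a linear scale, computed by the authors with GCOS, per the submitters' processing notes. Its version is not stated in those notes. Per the labels, RNA was amplified in 1 round. The trimmed mean of each array was 499.91 to 499.92. Names came from the platform annotation, updated to RefSeq (GRCm38.p6): 10833 probe sets had 1 symbol, 396 several and 1193 none here. Probe sets above the 40th percentile of their array on at least 2 arrays (7981) were tested on log2(signal + 16) with limma 3.58.1 (R 4.3.3; lmFit, eBayes with trend, Benjamini-Hochberg over all tested) and checked on simulated data. A gene was represented by its brightest tested probe set. The number of arrays limits the precision, and p-values measure the spread between pools. No detection calls were used.

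The members and all lists were chosen with earlier results of these data known. Genes named outside the members were, in each list, up to 4 past the threshold per direction, up to 3 bright ones that did not pass, the transcription factors on the array, and the 5 most like Pdzk1 and Lrp2. Alternatives were other offsets, filters, scaling, variance and array weights, a replicate block, mean probe sets and leaving arrays out. The replicate numbers were not taken as pairs.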

Additional observations from a re-analysis of the deposited data

Results flagged for a closer look

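Among the 4 wild-type arrays, Lrp6 read 1551.97 in replicate 2 at its brighter probe set, with the other 3 arrays at 1222, 1181 and 1163, which put it apart from them by Dixon's criterion. It was the single such case among 33 probe sets examined, and chance gives about 1 in 20.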

How the results depend on the processing

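The count of brush border probe sets called lower was 9, and 6 to 9 over the alternatives. It was 8 or 9 when 1 wild-type array was left out. The filter at percentile 60 tests fewer probe sets, and there it was 6, which was every brush border probe set then tested. The contrast that chose these genes also gave these calls, so nothing is read from this count. The count of other listed genes that fell was 6 (4 to 9; 4 to 7 when 1 array was left out). The count that rose was 2, with 1 to 2 when 1 array was left out and 1 with no variance trend. Without wild-type replicates 2 and 4, a choice made after seeing the data, these counts were 8, 7 and 3. Over all probe sets, 488 were lower and 371 higher, with 188 to 553 and 114 to 448 when 1 array was left out (198 and 133 without mutant replicate 1, 188 and 114 without mutant replicate 2, 320 lower without wild-type replicate 1), and 738 and 613 with array weights.

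With a replicate block, 362 probe sets were lower and 341 higher, 5 other listed genes fell and 1 rose, with the calls of Scin and Lrp1 lost. Deviations of same-numbered arrays had correlations of 0.0030 and -0.015, and the numbers were not taken to pair the samples.

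The signs that turned were those of genes that had not passed, and the cause was not tested. Ece1 had 0.038 with array weights, 0.18 with the replicate block, 0.19 without wild-type replicates 2 and 4, and -0.24 to 0.072 when 1 array was left out. Rnpep had -0.010 with an offset of 64, -0.032 with quantile normalization, -0.13 with array weights, -0.29 with the replicate block, -0.25 without wild-type replicates 2 and 4, and -0.29 to 0.17 when 1 array was left out. Lrp6 had -0.022 with the replicate block and -1.39 with the mean of its probe sets, Rdx 0.0090 with quantile normalization, and Ctsd 0.0025 without wild-type replicates 2 and 4. When 1 array was left out, Ctsd had -0.52 to 0.17, Lrpap1 -0.17 to 0.028 and Rdx -0.084 to 0.062.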
